A study of Mus musculus with 12 samples.

Results

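The 6 cortical libraries of the Grin1 exon 5 knockout line fell into 2 classes by Prkcd, the gene for protein kinase C delta and a marker of thalamic relay neurons. The classes were chosen by this measured value alone, as each library's Prkcd count over its column total in CPM (the count scaled to a fixed library total). The 3 libraries with at least 30 CPM of Prkcd are called Prkcd-high here and the 3 below are called Prkcd-low, and the series holds 12 libraries in all. Of these, KO 2 had 57.6 CPM, KO_WT 2 had 78.2 and KO 3 had 87, against 15.8 in KO 1, 15.4 in KO_WT 1 and 13.4 in KO_WT 3. The values nearest the threshold were therefore 57.6 CPM above it and 15.8 below it. The classes cross the genotypes: Prkcd-high holds 2 knockouts and 1 wild type, and Prkcd-low holds 1 knockout and 2 wild types. Because measured values chose the classes, all differences between them are given as descriptions without a test.

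RNA with poly(A) tails was sequenced from the cortex of adult C57Bl/6 mice, with 1 library from each animal. Grin1 encodes the obligatory subunit of NMDA-type glutamate receptors, and its exon 5 is an alternatively used cassette. The knockouts (KO, 3 libraries) are Grin1-exon5-/-, and the knock-ins (KI, 3 libraries) keep exon 5 constitutively (Grin1-exon5+/+). Wild types of the knockout line (KO_WT) and of the knock-in line (KI_WT) contributed 3 libraries each. Sex and the borders of the dissection are not stated in the labels. The deposited Grin1 count covers the whole gene, so that its 269 to 363 TMM-scaled CPM over the 6 knockout-line libraries does not check the exon 5 genotype.

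The dorsal thalamus lies beneath the cortex and sends glutamatergic relay axons into it. Relay neurons form under the transcription factors Gbx2, Lhx9 and Tcf7l2, load glutamate into vesicles mainly with the transporter Slc17a6, and fire bursts through T-type calcium channels. Their cell bodies, and with them most of their RNA, lie in the thalamus and not in the cortex. In bulk tissue, fewer cells of a type and less RNA per cell cannot be told apart.

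The knockout-line libraries held 32661770 to 36514024 counts, and all 12 held 21927 to 22809 detected genes. KO 1 and KO 2 stood apart from the rest. Pairs that included either differed by 35.7 to 57.3 times the sampling variance, and pairs among the other 4 by 9.02 to 17.5 times. Each class holds 1 of them, and the same libraries are the ones with high Xist, the transcript of the inactive X chromosome (570 and 677 CPM against at most 0.18). The animal numbers of KO 1, KO_WT 2 and KO_WT 3 also form a lower range of their own, with 1 Prkcd-high library and 2 Prkcd-low. KO 2, KO 3 and KO_WT 1, in the higher range, hold the reverse. What the ranges stand for is not stated in the labels. Neither Xist nor the number range therefore coincides with the classes.

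Shox2 and Prkcd had the widest differences between the classes among the thalamic genes. Their promoters are shown because they differ most, and because Tcf7l2 and Lef1, also listed as thalamic genes, encode factors of the family that recognises CTTTGA. The windows run from 250 bases before to 50 bases after the RefSeq start on GRCm38.p6 and are both on the minus strand, at chr3:66981722-66982021 for Shox2 and chr14:30626159-30626458 for the upstream start of Prkcd. Capitals mark CTTTGA, which lies on the opposite strand and so reads TCAAAG.
Shox2: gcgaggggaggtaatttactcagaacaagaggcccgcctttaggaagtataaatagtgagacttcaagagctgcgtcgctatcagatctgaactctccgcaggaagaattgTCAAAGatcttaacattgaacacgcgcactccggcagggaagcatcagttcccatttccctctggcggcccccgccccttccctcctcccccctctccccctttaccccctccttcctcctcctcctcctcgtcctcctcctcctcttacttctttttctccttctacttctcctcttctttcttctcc
Prkcd: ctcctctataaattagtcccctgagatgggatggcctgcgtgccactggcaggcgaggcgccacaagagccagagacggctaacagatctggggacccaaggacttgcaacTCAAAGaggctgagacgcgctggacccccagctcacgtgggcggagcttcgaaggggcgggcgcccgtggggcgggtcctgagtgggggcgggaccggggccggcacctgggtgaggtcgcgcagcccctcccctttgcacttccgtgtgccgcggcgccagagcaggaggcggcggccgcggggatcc
In both windows the first marked base lies at -139 from the start. A further window, at an internal start of Prkcd, holds no match. On either strand the 6 letters occur in 5257 of 32851 promoter windows of this length (16%). They occur in at least 1 window of 4 of the 19 thalamic list genes that could be matched (of 22). Those 19 genes have 26 windows, so the count of genes cannot be set against the share of windows. The motif was chosen after the values were seen, and the match describes these letters only.

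Transcription factors of thalamic neurons are taken first, as TMM-scaled CPM. Shox2 (ENSMUSG00000027833; GRCm38 chromosome 3, 66971727 to 66981771, minus strand), a homeobox factor of thalamic relay neurons, read 6.94 in KO 2, 14.9 in KO 3 and 7.66 in KO_WT 2. It read 0.63 in KO 1, 0.126 in KO_WT 1 and 0.0602 in KO_WT 3, which rest on 23, 4 and 2 counts. The classes were far apart for this gene, with a difference of 3.74 ± 0.46 (SE, 3 against 3 libraries) in the mean of log2(CPM + 0.5). That scale understates differences of genes with few counts.

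Lhx9, a LIM-homeodomain factor of the developing thalamus, was at 7.24, 11.4 and 7.69 CPM in KO 2, KO 3 and KO_WT 2. In KO 1, KO_WT 1 and KO_WT 3 it was at 3.01, 0.725 and 2.26 CPM. All Prkcd-high libraries lay above all Prkcd-low ones (difference 2.0 ± 0.50). Tcf7l2, a Wnt-pathway factor that maintains the thalamic identity of postmitotic neurons, was at 20.9, 33.3 and 17.4 CPM against 9.64, 5.67 and 7.61, in the same library order (1.56 ± 0.34). Gbx2, needed for relay neurons to form, was scarce throughout, with 1.56, 2.74 and 0.631 CPM against 0.521, 0.126 and 0.331. Its classes were separated only narrowly, by KO_WT 2 over KO 1. Lef1, the relative of Tcf7l2, was at 8.53 to 11.7 CPM against 5.23 to 6.14.

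The other 3 listed factors overlapped between the classes. Rora, a nuclear receptor of relay neurons that the cortex expresses as well, spanned 111 to 183 CPM in the Prkcd-high and 94.9 to 125 in the Prkcd-low libraries. Zic1 spanned 35.6 to 69.3 CPM and 27.3 to 46.3, and Zic4 4.06 to 10.2 and 4.54 to 6.71. Across the list 5 of 8 factors did not overlap and were higher in the Prkcd-high class, with 5.18% of the 17441 genes tested doing the same. The median difference of the 8 factors was 1.0, and that of all genes 0.00334. The Prkcd-low libraries thus held measurable RNA of most listed factors, and they are called by their Prkcd level and not "without thalamic transcripts".

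The second list holds effector genes of thalamic neurons: channels, receptors, transporters and synaptic proteins. On the TMM scale Prkcd (ENSMUSG00000021948; GRCm38 chromosome 14, 30595354 to 30626210, minus strand) was at 56.3 to 87.8 CPM in the Prkcd-high and 13.5 to 16.0 in the Prkcd-low class, as the rule fixed. Synpo2, which encodes the actin-bundling protein synaptopodin 2, was at 17.3 CPM in KO 2, 28.7 in KO 3 and 22.2 in KO_WT 2, against 7.64, 9.01 and 6.95 in the Prkcd-low libraries in the order KO 1, KO_WT 1, KO_WT 3. Its classes were well separated, with little spread in the Prkcd-low class (1.45 ± 0.23). Slitrk6, a neuronal membrane protein with leucine-rich repeats, was at 6.67, 10.3 and 4.72 CPM against 3.73, 1.26 and 2.2 in the same order (1.44 ± 0.47).

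Grid2ip, a scaffold protein first described at cerebellar synapses, was at 4.37, 6.30 and 3.31 CPM in the Prkcd-high and 0.986, 1.80 and 1.93 in the Prkcd-low libraries (1.31 ± 0.33). For Rgs16, a regulator of G-protein signalling, the values were 19.1, 27.3 and 25.1 CPM against 14.2, 8.35 and 8.97 (1.17 ± 0.28). Plekhg1, a guanine exchange factor for small GTPases, was at 35.9 to 64.9 CPM against 16.7 to 27.8 (1.11 ± 0.35). These 3 genes did not overlap either, and KO 2 was the lowest Prkcd-high library for Rgs16 and Plekhg1.

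Ramp3, which modifies calcitonin-family receptors, did not overlap either (12.9 to 21.4 CPM against 5.95 to 9.99). Nor did Amotl1, a junction-associated scaffold, at 52.5 to 70.8 CPM against 41.7 to 43.6. Ntng1, the axonal guidance protein netrin G1, was separated by under 1 CPM, with 37.2 in KO 2 and 36.2 in KO 1. Besides Prkcd, 8 of 13 effector genes were higher without overlap (5.18% of all genes), and their median difference was 0.951 (0.00334 for all genes).

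Overlap was seen for 5 effectors. Slc17a6, the vesicular glutamate transporter VGLUT2, was at 79.1, 103 and 56.4 CPM in KO 2, KO 3 and KO_WT 2, and at 61.8, 36.0 and 41.8 in KO 1, KO_WT 1 and KO_WT 3. KO 1 exceeded KO_WT 2 there, while within each genotype the Prkcd-high libraries were higher (0.55 in KO and 0.53 in KO_WT on the log2 scale). Tnnt1, a slow troponin T, spanned 3.74 to 10.4 CPM and 2.87 to 4.77. Cacna1g, the T-type channel of thalamic bursts, reached 134.7 CPM in KO 2 and lay between 38.0 and 65.0 elsewhere. The EF-hand protein gene Necab1 likewise had its maximum, 248 CPM, in KO 2. Calb2 (calretinin) went the other way, at 19.7 to 36.3 CPM in the Prkcd-high class and at 81.4, 13.0 and 67.6 in KO 1, KO_WT 1 and KO_WT 3.

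**Figure D1:**
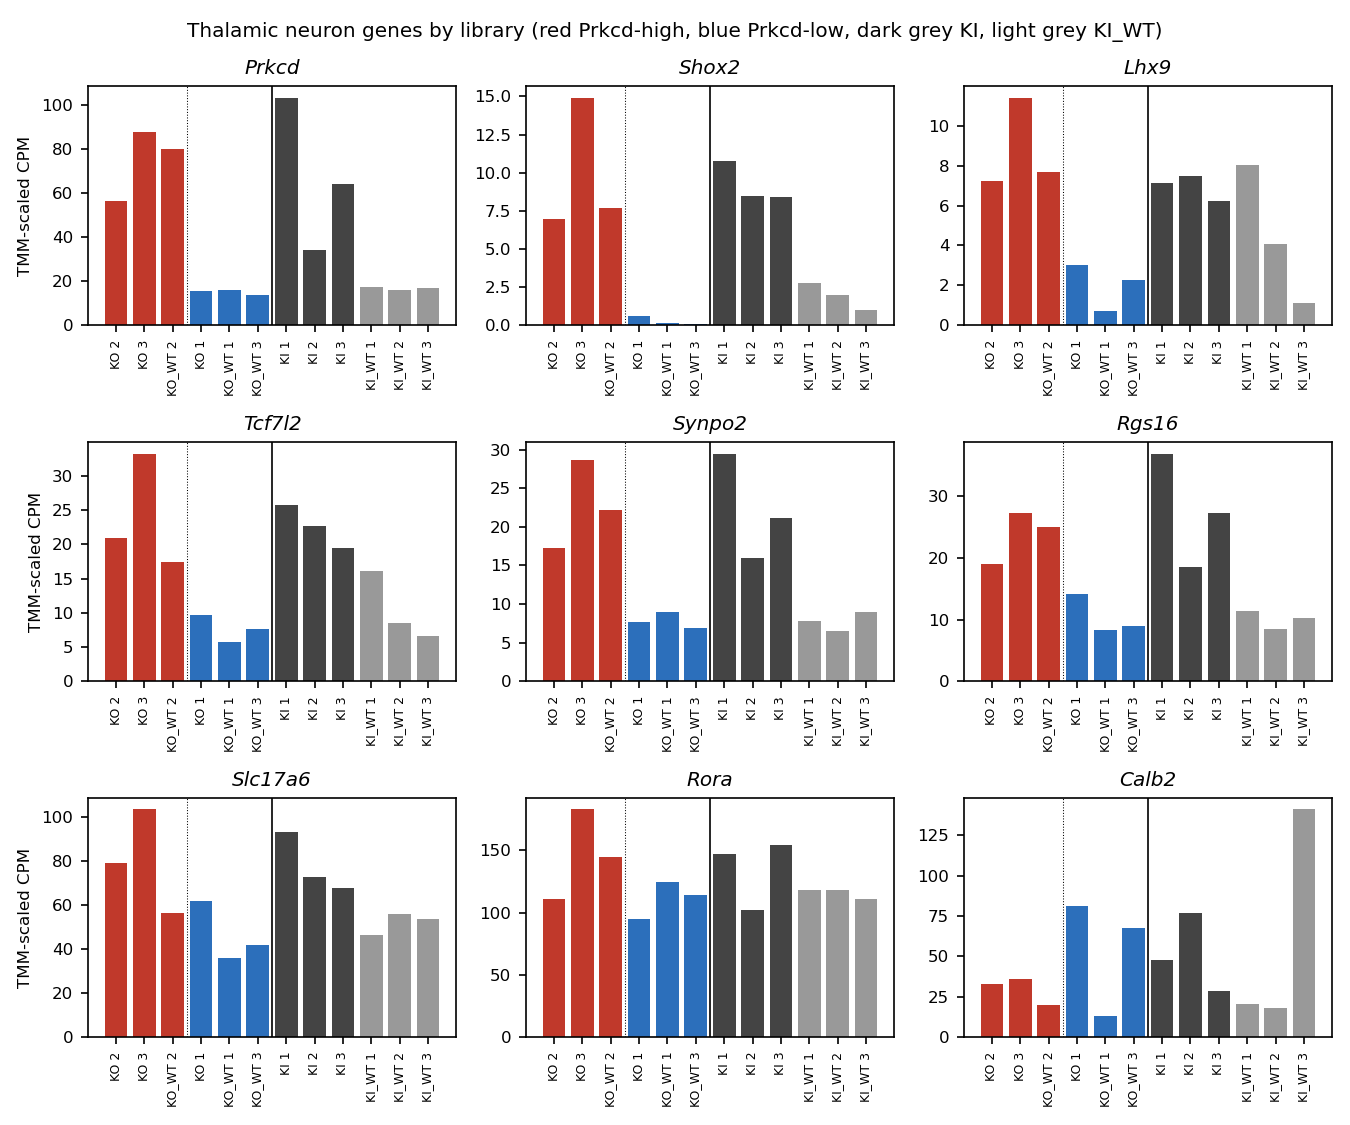
TMM-scaled CPM (vertical axes, linear, from 0) of 9 thalamic list genes in all 12 libraries, 1 bar per library, with Prkcd-high libraries in red, Prkcd-low in blue, KI in dark grey and KI_WT in light grey. Shox2 stood at 0.63 CPM or below in the Prkcd-low libraries and at 6.94 or above in the Prkcd-high ones, whereas Slc17a6, Rora and Calb2 overlapped.

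The Prkcd-high libraries were not alike among themselves. KO 3 was the highest of them for 18 of the 21 thalamic members other than Prkcd, KO 2 for 2 and KO_WT 2 for 1. Per kilobase and library total, in the deposited RPKM, Prkcd in KO 3 stood at 17.5 RPKM, Slc17a6 at 23.7, Shox2 at 4.53 and Tcf7l2 at 3.77. In KO_WT 3, with the lowest Prkcd, the same genes were at 2.69, 9.58, 0.018 and 0.862 RPKM. Dividing the 6 libraries by the summed CPM of the 21 other members gave the same classes, with 751 to 1027 CPM in the Prkcd-high and 559 to 652 in the Prkcd-low libraries. Such a sum weighs abundant members most, among them Rora, Necab1 and Cacna1g, which overlapped between the classes. The lists were also chosen with earlier results of these data known, so the same division is no independent support for the classes.

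Over all 17441 genes, 35 were at least 2-fold higher in the Prkcd-high class without overlap (0.201%) and 21 at least 2-fold lower (0.12%). Without a minimum fold 903 genes (5.18%) were higher and 907 (5.2%) lower, so the numbers in the 2 directions were near equal. Thalamic list members made up 11 of the 35 and hippocampal ones 3. The other 21 belonged to none of the 31 lists. Of the 35, 26 kept a 2-fold difference within KO (KO 2 and KO 3 against KO 1), 30 within KO_WT (KO_WT 2 against the other two), and 21 within both. Within both animal-number ranges 24 of the 35 did so, and 20 did whichever library was left out. With KO 1, KO 3 or KO_WT 2 set aside the number higher came to 71, 66 and 55. The number lower was 8 without KO 1, and came to 43, 100, 56 and 41 without KO 2, KO_WT 1, KO_WT 2 and KO_WT 3.

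Several genes outside the thalamic lists followed Prkcd closely. Abhd12b (ENSMUSG00000090121; GRCm38 chromosome 12, 70154142 to 70183887, plus strand), a predicted hydrolase, was at 2.36, 2.51 and 2.77 CPM in KO 2, KO 3 and KO_WT 2. In KO 1, KO_WT 1 and KO_WT 3 it was at 0.247, 0.221 and 0.301 CPM, so the spread within each class was small (2.01 ± 0.071). Wnt9b, a secreted Wnt ligand, was at 3.08, 1.74 and 1.62 CPM against 0.274, 0.158 and 0.120 (1.92 ± 0.26). Fam19a4, a secreted chemokine-like protein, was at 2.06 to 2.87 CPM against 0.63 to 0.849 (1.31 ± 0.14). All 3 were scarce and rest on 4 to 104 counts per library.

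Epn3, an endocytic adaptor, was at 3.71 to 4.59 CPM against 0.598 to 1.75. The calcium pump gene Atp2a1 was at 1.11 to 2.93 CPM against 0.120 to 0.252. Neither overlapped, and for Atp2a1 KO 2 was highest. Slc26a4 (pendrin, an anion exchanger), Cabp7 (a calcium-binding protein), Shisa6 (an auxiliary AMPA receptor subunit), Slc9a4 (a sodium-proton exchanger) and Tanc1 (a postsynaptic scaffold) were also at least 2-fold higher, by 1.10 to 1.59 on the log2 scale. These 5 were highest in KO 2 or KO_WT 2, not in KO 3, where the thalamic genes peaked.

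In the knock-in line, whose libraries the rule did not use, Prkcd was at 103, 34.2 and 63.9 CPM in KI 1 to KI 3 and at 17.2, 15.9 and 16.7 in KI_WT 1 to KI_WT 3. All 3 KI libraries lay above the 30 CPM threshold and all 3 KI_WT libraries below it. The log2 fold change of KI over KI_WT was 2.02 ± 0.71 (SE; edgeR quasi-likelihood test, adjusted p = 0.705), so the difference did not pass the threshold of 0.05 over 17441 genes. At that threshold edgeR called 0 genes (0%) in KI against KI_WT, with 531 (3.04%) higher and 683 (3.92%) lower at an unadjusted p under 0.05. The sum of these, 1214, was 713 without KI 1 and 592 without KI 2. DESeq2 called 2, Lypd1 and Atp5g2, neither of which is in the class set.

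The 35 genes higher in the Prkcd-high class were mostly higher in KI as well. Their fold change was above 0 for 34, with a median of 0.66 against -0.0054 for all genes tested. The libraries did not overlap for 18 of them, where 6.32% of all genes were higher in KI without overlap. At an unadjusted p under 0.05 11 were higher (3.04% of all genes), and 0 passed the adjusted threshold of the edgeR test. The 11 thalamic members had a median of 1.41, and 10 of them did not overlap. Outside the thalamic lists the 24 genes had a median of 0.41, and 8 did not overlap. That Prkcd and other thalamic genes differ in both lines was known when the classes were proposed, so this is no independent support.

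Shox2 was at 10.8, 8.50 and 8.38 CPM in KI and 2.78, 1.96 and 0.986 in KI_WT. Its libraries did not overlap (2.27 ± 1.20, edgeR adjusted p = 0.733). Gbx2 was at 2.12, 2.23 and 1.17 CPM in KI and 0.259, 0.0917 and 0.358 in KI_WT (2.94 ± 0.66, edgeR adjusted p = 0.705). The Prkcd-low libraries of the knockout line had Shox2 at 0.63 CPM or below, so the KI_WT libraries lay above them while KI lay within the Prkcd-high range. Lhx9 did not separate the knock-in groups, with 7.13, 7.5 and 6.22 CPM in KI and 8.05, 4.07 and 1.11 in KI_WT.

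Abhd12b was at 2.21, 2.34 and 2.89 CPM in KI and at 0.194, 0.306 and 0.179 in KI_WT, close to the levels of the 2 knockout-line classes. Its log2 fold change was 3.43 ± 0.98 (edgeR adjusted p = 0.705). Fitted to the 2 knock-in groups alone, it was the 1 gene past the threshold (adjusted p = 0.0207). Fam19a4 (2.2 to 2.86 CPM in KI, 0.672 to 0.747 in KI_WT) and Wnt9b (0.770 to 1.30 and 0.183 to 0.323) did not overlap either. Neither passed the adjusted threshold.

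Genes lower in the Prkcd-high class did not share a direction in KI. Of the 21, 12 were higher and 9 lower in KI, with a median of 0.099, and 0 were separated from KI_WT in either direction (6.32% of all genes were higher and 5.87% lower without overlap). The edgeR test called 0 of them at the adjusted threshold and 0 at an unadjusted p under 0.05.

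**Figure D2:**
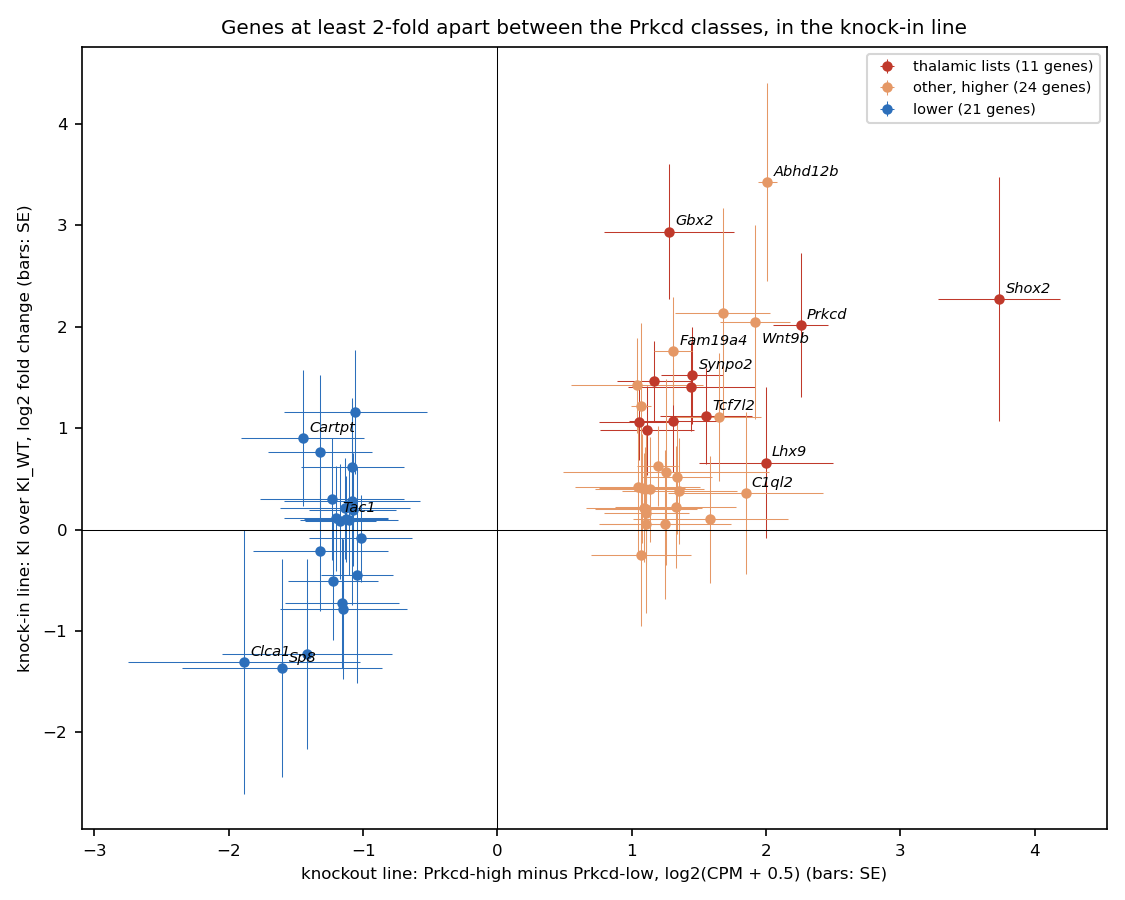
Log2 difference between the Prkcd classes of the knockout line (horizontal axis, bars SE) and log2 fold change of KI over KI_WT (vertical axis, bars SE) for the 35 genes at least 2-fold higher and the 21 at least 2-fold lower without overlap, 1 point per gene. Of the 35 on the right 34 lie above 0 on the vertical axis, and the 21 on the left are split into 12 above and 9 below; the horizontal positions were fixed by the choice of genes.

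RNA of other brain regions also differed among the 6 libraries, in patterns that matched the classes for some regions and not for others. Hippocampal genes were higher in the Prkcd-high class, with a median difference of 1.11 and 4 of 9 higher without overlap (5.18% of all genes). C1ql2, a secreted synaptic protein of dentate granule cells, was at 25.2, 9.56 and 11.3 CPM in KO 2, KO 3 and KO_WT 2, and at 3.53, 1.98 and 6.05 in KO 1, KO_WT 1 and KO_WT 3. Prox1, the homeodomain factor of the same cells, was at 43.4 to 58.1 CPM against 17.8 to 34.6. The junction gene Dsp overlapped: KO_WT 3 had 8.64 CPM although it was Prkcd-low. In KI against KI_WT the hippocampal median was 0.16, with 1 of 9 higher without overlap (6.32% of all genes) and 0 higher at p under 0.05 by edgeR (3.04%), while the 22 thalamic genes included 14 higher without overlap. The part that hippocampal RNA has in the class differences was not tested.

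Choroid plexus genes, from the epithelium that secretes cerebrospinal fluid, split the libraries differently. Ttr (transthyretin) was at 971 CPM in KO 2, 513 in KO 3, 801 in KO_WT 2 and 827 in KO 1, but at 8.69 in KO_WT 1 and 8.85 in KO_WT 3. KO 1 therefore held choroid plexus RNA at the level of the Prkcd-high libraries with Prkcd at 15.4 CPM. The same combination occurred in the knock-in line, where KI_WT 1 and KI_WT 2 had Ttr at 1508 and 1122 CPM and Prkcd at 17.2 and 15.9. The 12 choroid plexus genes summed to 584 to 1122 CPM in the Prkcd-high class and to 938, 25.7 and 36.4 in KO 1, KO_WT 1 and KO_WT 3. They summed to 1322, 1994 and 797.5 CPM in KI 1 to KI 3, and to 31.7 in KI_WT 3, where Prkcd was at 16.7. Every library of the series with high Prkcd was thus rich in choroid plexus RNA, and every choroid plexus-poor library was low in Prkcd. The part that choroid plexus RNA has in the class differences was not tested. All 12 genes overlapped between the classes of the knockout line. All 12 were also higher on average in the Prkcd-high class, with a median difference of 1.69, above the medians of both thalamic lists. That median was 0.023 within KO and 2.60 within KO_WT. With KO_WT 1 and KO_WT 3 set aside, a choice made after seeing the data, the median of the thalamic factors was 0.783 and that of the effectors other than Prkcd 0.714.

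Among the knockout-line libraries, olfactory bulb genes were high in KO 1 and KO_WT 3. Doc2g, of mitral and tufted cells, was at 26.5 CPM in both, and at 1.32 to 4.79 in the other 4 libraries. The photoreceptor-type cadherin gene Cdhr1 was at 45.4 and 66.1 CPM there, against 2.61 to 10.02 elsewhere. All 6 bulb genes were lower on average in the Prkcd-high class, with a median difference of -1.78, wider than that of either thalamic list. Of the 6, 5 overlapped between the classes because KO_WT 1 was as low as the Prkcd-high libraries. In the knock-in line the 6 genes summed to 309 CPM in KI_WT 3, where Prkcd was at 16.7, and to 11.6 to 58.0 in the rest. Against KI_WT, 0 of the 6 were higher in KI, with a median of -1.81, and 0 were separated. Without KO 1 and KO_WT 3 the thalamic medians were 1.24 for the factors and 1.11 for the effectors, with KO_WT 1 as the only Prkcd-low library left.

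Striatal genes were lower in the Prkcd-high class, by a median of 0.97 on the log2 scale, and 4 of 10 did not overlap (5.2% of all genes lower). Tac1, the substance P precursor of direct-pathway neurons, was at 24.2, 30.1 and 45.3 CPM in KO 2, KO 3 and KO_WT 2 and at 110.9, 60.7 and 61.5 in KO 1, KO_WT 1 and KO_WT 3. Gpr6, a receptor of indirect-pathway neurons, was at 2.45, 3.76 and 7.39 CPM against 16.1, 10.6 and 7.91. The difference was larger among the knockouts, with a median of -1.66 within KO and -0.21 within KO_WT. Among the 21 genes at least 2-fold lower, 21 were so within KO and 6 within KO_WT, and 4 stayed so whichever library was left out.

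Hypothalamic genes summed to 214.9 CPM in KO 1, 69.9 in KO 2 and 13.8 to 36.7 in the other 4 knockout-line libraries. All 11 that passed the filter were lower on average in the Prkcd-high class, with a median difference of -0.83. Of these, 2 were lower without overlap (5.2% of all genes). Pmch, the melanin-concentrating hormone precursor, was at 69.5 CPM in KO 1, 8.50 in KO 2 and at most 1.77 in the other 4. Hcrt (orexin) was at 20.6 CPM in KO 1, 1.59 in KO 2 and at most 0.11 in the other 4. The listed gene Gal was instead highest in KO 2, at 10.02 CPM against 4.88 in KO 1. In KI, too, Pmch differed among libraries that all carried Prkcd: 44.5, 28.1 and 0.701 CPM in KI 1 to KI 3. Hypothalamic transcripts were thus high and thalamic ones low in KO 1, and the reverse held in KO 3. KO 2, KI 1 and KI 2 held both. KI 2 had a hypothalamic sum of 95.7 CPM with Prkcd at 34.2 CPM. In KI 1 the hypothalamic genes summed to 185 CPM and Prkcd was at 103 CPM, the most in the knock-in line for each.

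The habenula adjoins the thalamus. Of its 8 listed genes 0 were separated by class, near the 10.4% of all genes that were separated in either direction. Their median difference was 0.31, and 7 were higher on average in the Prkcd-high class. Gpr151, a receptor of habenular projection neurons, was at 4.28 CPM in KO 2 and 4.50 in KO 3, but at 0.721 in KO_WT 2 and 0.473 to 0.795 in the Prkcd-low libraries. Pou4f1, a transcription factor of medial habenular neurons, was at 1.05 and 1.46 CPM in the same 2 libraries and at most 0.063 in the other 4. KO_WT 2, with Prkcd at 79.8 CPM, therefore did not share these levels. KI 2 had the most of both (7.05 and 2.05 CPM) and the least Prkcd of the 3 KI libraries. Not all listed genes followed these: Chrna3 was also highest in KO 2 and KO 3, but Chrnb3 was at 3.50 CPM in KO_WT 1 and 2.54 in KO 2. The 8 genes together summed to 87.6 and 75.6 CPM in KO 2 and KO 3, and to 54.7 to 71.9 in the other 4 knockout-line libraries.

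The thalamic reticular nucleus, the inhibitory shell of the thalamus, was represented by Six3, Ecel1 and Spp1. All 3 overlapped, with differences of -0.33 to -0.20. Six3, a homeobox factor of striatal and reticular neurons, was at 9.06, 7.57 and 10.2 CPM in KO 2, KO 3 and KO_WT 2 against 19.0, 10.7 and 6.95. All 3 genes are expressed in other forebrain regions too.

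**Figure D3:**
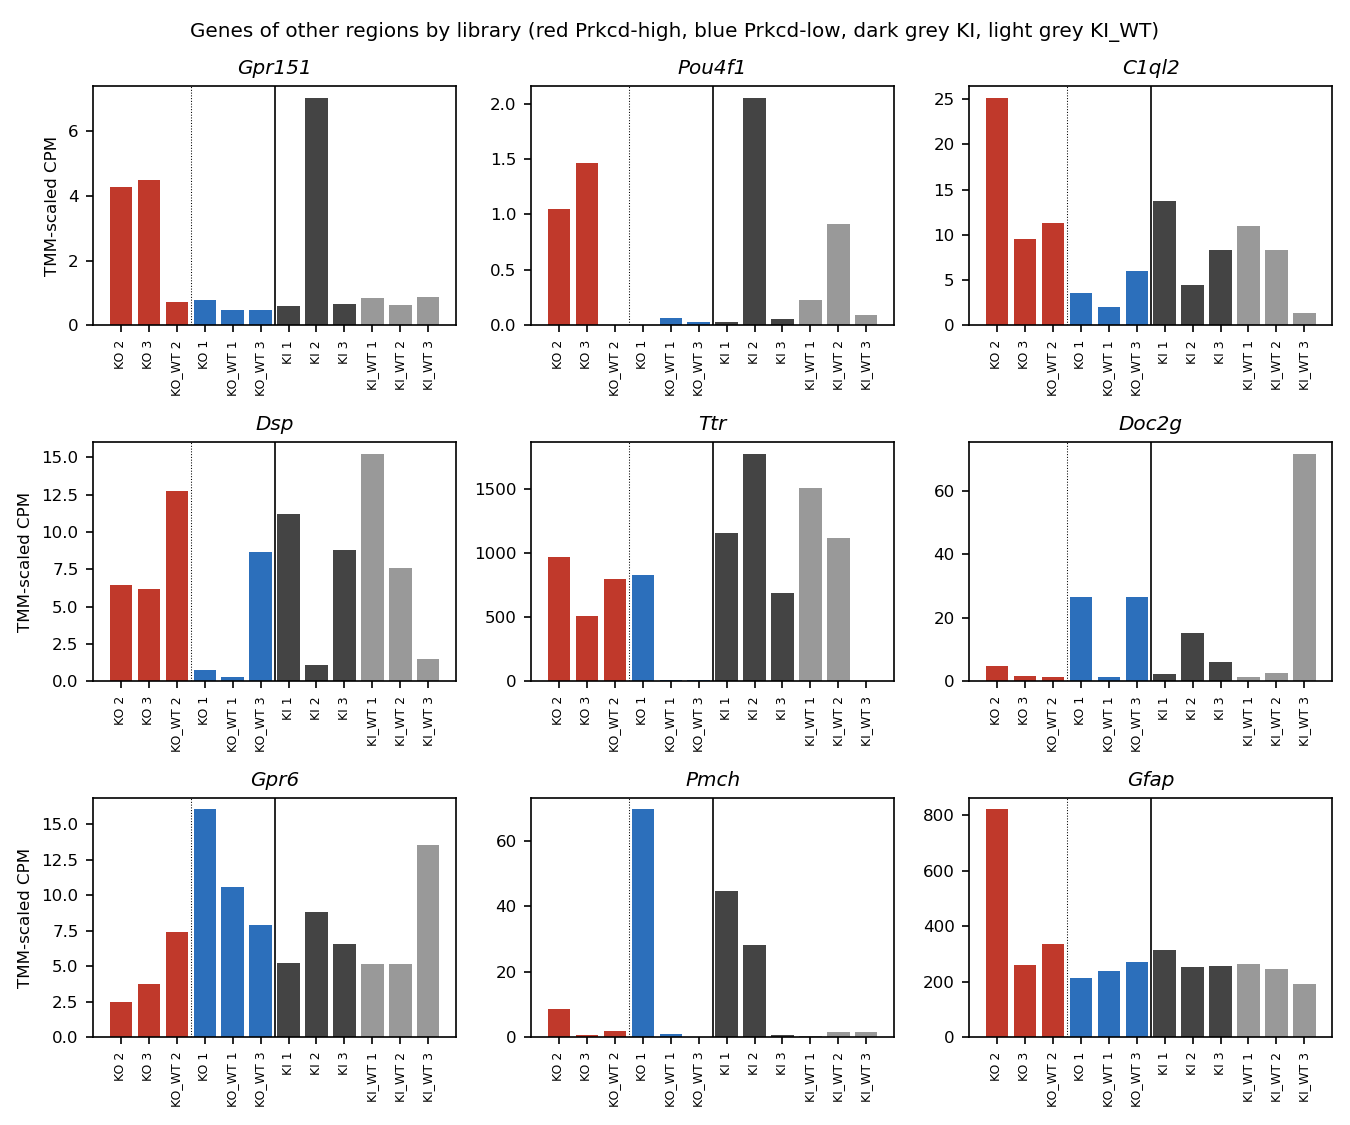
TMM-scaled CPM (vertical axes, linear, from 0) of 9 genes of other regions or cell types in all 12 libraries, 1 bar per library, coloured as Prkcd-high (red), Prkcd-low (blue), KI (dark grey) and KI_WT (light grey). Ttr was high in KO 1 although that library was Prkcd-low, and Gpr151 and Pou4f1 were high in KO 2 and KO 3 but not in KO_WT 2. In the knockout line Doc2g was high in KO 1 and KO_WT 3, and in the series it was highest in KI_WT 3.

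Most cell types of the cortex itself differed little between the classes in the median of their genes. Median differences were 0.0016 for astrocytes, -0.054 for oligodendrocytes, 0.023 for their precursors, -0.082 for microglia, -0.085 for endothelium and -0.18 for mural cells. Neurons of layer 4, the main target of relay axons, had a median of -0.16, and upper and deep layers both had -0.11. Of the 11 deep-layer genes 2 were higher and 2 lower without overlap (5.18% and 5.2% of all genes), among them Fezf2 (0.50) and Foxp2 (-0.57). Of the 4 layer 4 genes 1 was higher without overlap. Lower without overlap were 2 of 12 astrocyte genes, 2 of 8 mural cell genes and 1 of 12 microglial genes. Interneuron genes had a median of -0.27, with 4 of 9 lower without overlap (5.2% of all genes), among them the vesicular GABA transporter gene Slc32a1 (50.7 to 61.0 CPM in the Prkcd-high and 66.7 to 86.2 in the Prkcd-low class) and Lhx6, a factor of interneurons from the medial ganglionic eminence (13.0 to 15.3 and 16.3 to 18.7). Striatal neurons are GABAergic as well, and their list was lower in the same class; the part of either in the other was not tested. Excitatory neuron genes had a median of 0.25, which was 0.73 within KO and -0.14 within KO_WT. Of these 8 genes 6 overlapped, and 2 were higher without overlap (5.18% of all genes). An example of the 2 is Neurod6, at 91.9 to 136 CPM in the Prkcd-high and 44.7 to 75.7 in the Prkcd-low class. NMDA receptor subunits had a median of 0.13 over the 6 of 7 that passed the filter, and 0 of them were separated (10.4% of all genes).

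Of the channels of thalamic bursts 0 of 9 were higher or lower without overlap, near the 10.4% of all genes that were. Their median difference was 0.22. Cacna1h and Cacna1i, the other T-type channel genes, spanned 31.7 to 61.0 and 72.3 to 92.0 CPM in the Prkcd-high class and 29.8 to 45.6 and 73.0 to 106 in the Prkcd-low class. Target genes of the Wnt pathway, in which Tcf7l2 and Lef1 act, had a median of 0.065. Of those 8, Lef1 itself and Axin2, a feedback inhibitor (16.5 to 17.4 against 13.8 to 16.1 CPM), were higher without overlap (5.18% of all genes). Tcf7 (3.37 to 3.94 against 4.18 to 5.75 CPM) was lower without overlap (5.2% of all genes).

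KO 2 also departed from the other 5 in genes unrelated to the thalamic lists. Its Gfap, the filament protein of reactive astrocytes, was at 819.9 CPM against 214 to 334. Slc17a7, the main cortical vesicular glutamate transporter, was at 1081 CPM against 523 to 752, and the upper-layer gene Lamp5 at 59.7 against 142 to 260. Without KO 2 the median difference of the thalamic factors was 1.0 and that of the effectors other than Prkcd 1.21.

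**Figure D4:**
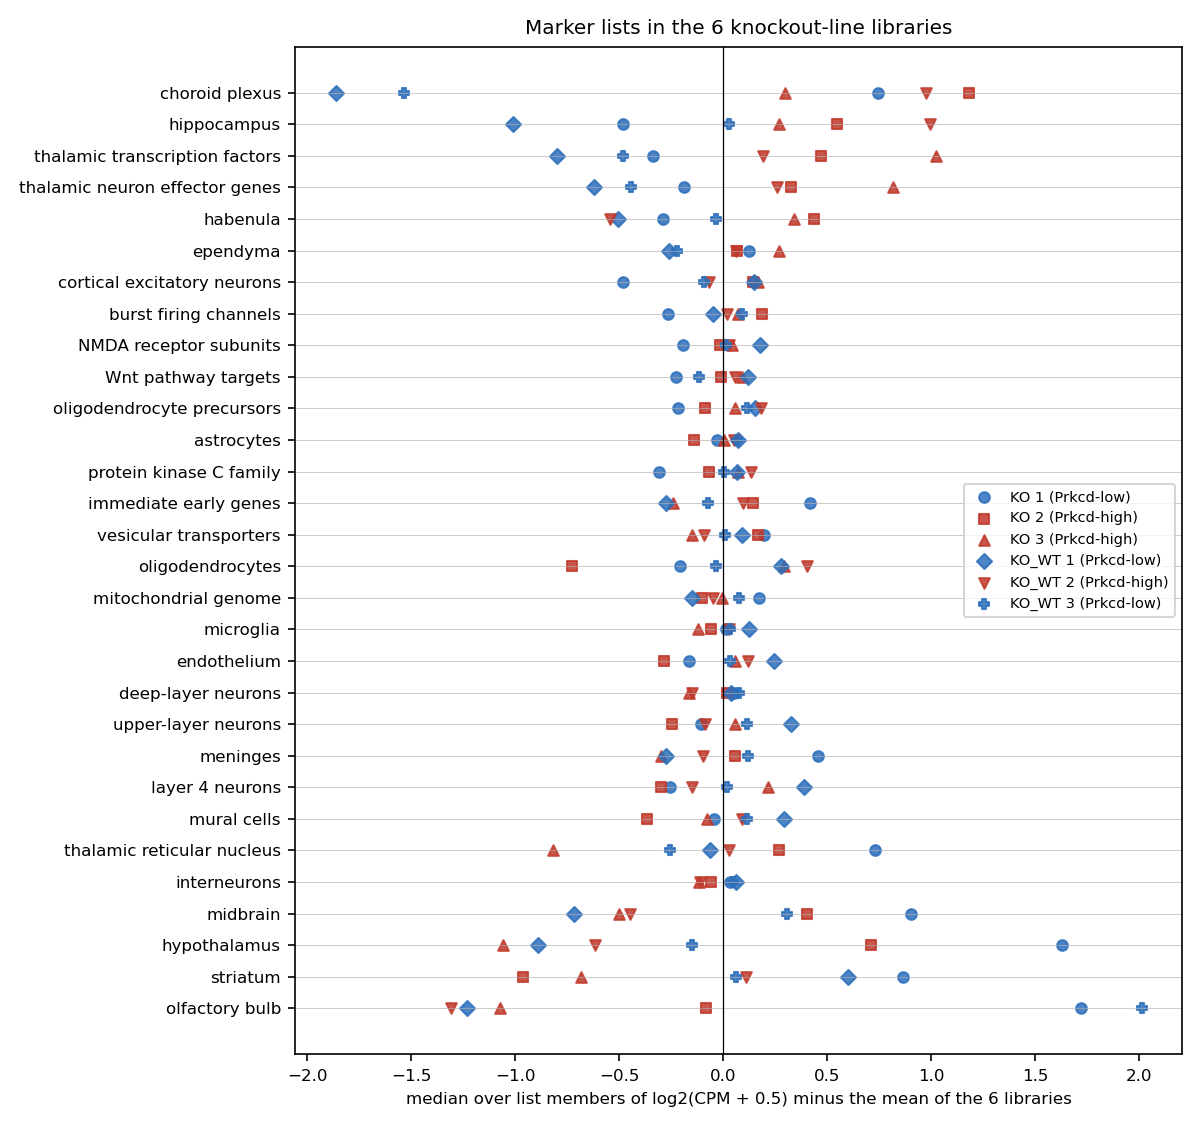
For each marker list, the median over its members of log2(CPM + 0.5) minus the mean of the 6 knockout-line libraries (horizontal axis, log2 units), with 1 symbol per library, red for Prkcd-high and blue for Prkcd-low. The colours separate for the 2 thalamic lists, as the rule and the choice of lists led to, and also for the hippocampal, interneuron and deep-layer lists, while KO 1 lies with the Prkcd-high libraries for choroid plexus and the olfactory bulb list is high only in KO 1 and KO_WT 3.

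The genotype comparison used the same 6 libraries, with the classes distributed 2 to 1 over KO and 1 to 2 over KO_WT. The Xist-high libraries, KO 1 and KO 2, are both knockouts and also stood apart from the rest, while every KO_WT library was Xist-low. The comparison carries this imbalance, and Xist was among the genes DESeq2 called in it. Without a term for the class, the 21 thalamic genes other than Prkcd were all higher in KO than in KO_WT, with a median log2 fold change of 0.59 against 0.0076 for all genes. With the class as a term 15 of 21 were higher and the median was 0.32. The number at an unadjusted p under 0.05 in the edgeR test was 7 without and 3 with the term, where the shares of all genes were 7.22% and 8.58%. None passed the adjusted threshold in either fit. The class was set from Prkcd in these same libraries and is split unevenly over the genotypes. Adding it therefore lowers the fold change of genes that are higher in the Prkcd-high class. That drop follows from the design, and the p-values of the fit with the class are given as a description only.

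For Synpo2 the fold change was 0.49 ± 0.47 (SE) without the class and -0.0017 ± 0.25 with it. Shox2 went from 1.51 ± 1.17 to 1.0 ± 0.49, and Tcf7l2 from 1.06 ± 0.48 to 0.59 ± 0.31. The 3 genes that remained at p under 0.05 were Gbx2 (2.13 ± 0.63 without and 1.52 ± 0.48 with the class), Slc17a6 (0.86 ± 0.20 and 0.68 ± 0.14) and Slitrk6 (1.33 ± 0.43 and 0.97 ± 0.26). Each had an edgeR adjusted p of 0.678 without and 0.572 with the class. Tcf7l2, Zic1, Zic4 and Necab1 were under that p without the class only. DESeq2 called Slc17a6 without the class (adjusted p = 0.0483). KO 3, the library with the most thalamic RNA, and KO 2 are both knockouts, so that genotype and the amount within the Prkcd-high class cannot be told apart.

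Over all genes 1260 had an unadjusted p under 0.05 without the class term and 1497 with it, of which 911 were shared. The gene past the adjusted threshold was Tpp1 in both fits (0.00573% of genes), with KO lower by edgeR at -0.86 (adjusted p = 0.000171) without and -0.85 (adjusted p = 0.00107) with the class. Tpp1 encodes a lysosomal tripeptidyl peptidase. It was at 46.1 to 48.6 CPM in KO and 83.4 to 88.2 in KO_WT, irrespective of the Prkcd class. Without KO 3 the adjusted count was 6 and the unadjusted one 2594, and the latter was 751 without KO 2 and 767 without KO_WT 1.

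**Figure D5:**
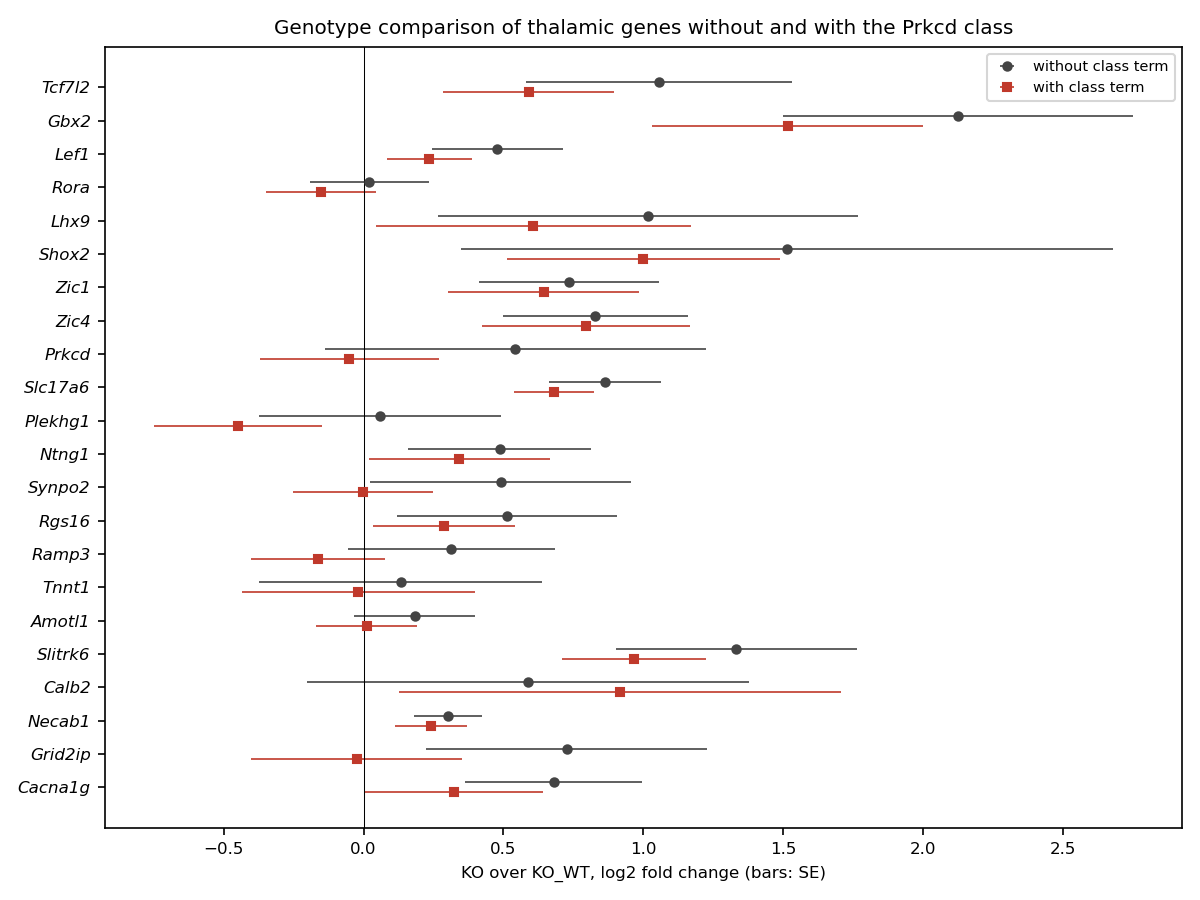
Log2 fold change of KO over KO_WT (horizontal axis, bars SE) for the 22 thalamic list genes in the edgeR fit without (grey circles) and with (red squares) a term for the Prkcd class. With the term most points move toward 0, as the uneven split of the classes leads to for genes higher in the Prkcd-high class. Synpo2 moves from 0.49 to -0.0017, while Gbx2, Slitrk6 and Slc17a6 stay above 0.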

How the data were processed

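Poly(A) RNA-seq libraries of mouse cortex were grouped by the labels. The authors used bcl2fastq 2.17, STAR 2.5.0c and Cufflinks 2.2.1 with GRCm38, per the submitters' processing notes. The read counter, annotation and strand setting are not given in the sources used here, so reads of overlapping or antisense genes may be assigned to either gene. The deposited counts are whole numbers for 41388 genes, and the authors' deposited RPKM values cover the same libraries. Gene IDs were placed with GENCODE M21 (40254 matched). The 12 libraries held 31790970 to 36514024 counts.

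Genes were kept by filterByExpr in edgeR 4.0.16 (R 4.3.3), scaled by TMM (factors 0.96 to 1.06) and given as CPM. Class differences are means of log2(CPM + 0.5) with no test. KI against KI_WT and KO against KO_WT were tested by edgeR's quasi-likelihood test over all 12 libraries (8 residual degrees of freedom, 7 with the class term, biological coefficient of variation 15.7%), adjusted by Benjamini-Hochberg over 17441 genes. No overlap means that all 3 libraries of one side lay above all 3 of the other.

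The members, the 31 lists (269 genes, all in the table) and the tests were chosen with earlier results of these data known. Named genes were the thalamic, reticular and habenular list members, the 20 higher and 15 lower non-overlapping genes of largest difference (at least 2 CPM in the higher class), 2 members of each other list, and genes called in either test. Others, such as Atp2a1, Tanc1, Neurod6, Slc32a1, Lhx6, Axin2 and Lamp5, and the motif were chosen after their values were seen. Some list members are not reported here.

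Simulated data with 200 of 17441 genes changed were used as a check. For KI against KI_WT 34%, 65.5% and 94% of genes changed 1.5-fold, 2-fold and 4-fold were called, and for KO against KO_WT 27%, 68.5% and 91.5%. Between 3 and 12 unchanged genes were called as well. The simulated counts were drawn independently for each gene, without the regional differences and outlying libraries of the real data. These shares therefore check the code and do not give the power of the tests in these libraries. Alternatives were RLE size factors, column totals, other count filters, pseudocounts and RPKM, DESeq2 1.42.0, voom (limma 3.58.1), terms for genotype, animal-number range and Xist, and leaving out libraries.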

Additional observations from a re-analysis of the deposited data

How the results depend on the processing

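The 35 genes at least 2-fold higher without overlap became 80 with a pseudocount of 0.1 CPM, 17 with 2 CPM, 60 with a term for animal-number range and 53 with one for Xist. The 21 lower genes became 50, 11, 11 and 34 under the same settings, 35 on log2(RPKM + 0.1) and 46 with a term for genotype. Leaving out 1 library gave 29 to 71 higher and 8 to 100 lower genes. With the choroid plexus-poor libraries KO_WT 1 and KO_WT 3 set aside there were 93 and 203, and with the olfactory bulb-rich KO 1 and KO_WT 3 set aside 117 higher. Both were chosen after seeing the data. The cause of these moves was not tested.

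The median of the thalamic factors was 0.612 with a pseudocount of 2 CPM and 0.761 to 1.25 with 1 library left out; that of the effectors without Prkcd was 0.841 to 1.21. DESeq2 called 2 genes in KI against KI_WT and 8 in KO against KO_WT, and the fit to the knock-in groups alone called 1. With 1 library left out KI against KI_WT gave 592 to 1621 genes at p under 0.05, and KO against KO_WT gave 1 to 6 past the adjusted threshold and 751 to 2594 at p under 0.05. No gene that passed its test, and no class difference without overlap, changed sign. Among the other named genes 44 class differences, 106 fold changes in KI and 148 in KO did so over all settings, 27 of the last with the class term, Synpo2 and Grid2ip among them. Of the class differences of named genes, 97 moved by more than the spread between libraries and 2012 did not.

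No paired analysis was possible because each title carries its own animal number, and replicate numbers were given in accession order. With 3 libraries a class and 1 or 2 per genotype in each, within-genotype values rest on single libraries. Genes with few counts, such as Shox2 in the Prkcd-low class, have uncertain differences.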
